A study of Mus musculus with 19 samples.

Results

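Collagen genes of mouse glial progenitor cells and glia were the 43 genes, of 22958 in the expression table, whose symbol is Col, a type number, the letter a and a chain number. The rule that picks them reads the symbol and no measured value. The study measured RNA in cells derived from mouse embryonic stem cells, as 4 libraries of glial progenitor cells (GPC), which divide and can give rise to astrocytes and oligodendrocytes, and 3 libraries of glia. By chromatin immunoprecipitation with sequencing (ChIP-seq), it also mapped where 3 transcription factors bind in GPC: SOX3 (2 samples), SOX9 (3 samples) and NFIA (2 samples). Both groups carry 1 protocol in the labels: the stem cells were differentiated in N2B27 medium with 0.1 µM all-trans retinoic acid, cells bearing the A2B5 antigen were sorted with magnetic beads at day 8, and the sorted cells were grown on fibronectin with 10 ng/ml each of EGF and FGF2. The sources used here do not say how the glia were derived from that point. Nothing in the labels ties the numbered libraries to separate cultures, so a p-value here measures only the spread among libraries, which may be technical.

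Collagens are secreted or membrane-bound proteins whose chains wind around each other into a triple helix, and several types are built from more than 1 kind of chain. Fibrillar collagens form the tensile fibrils of connective tissue, FACIT collagens sit on the surface of those fibrils, and type IV collagen forms the sheet-like network of basement membranes. In the nervous system, collagens are known mainly from the meninges, the vessels and the peripheral nerve sheath, where fibroblasts, endothelial cells and Schwann cells make them, while astrocyte endfeet rest on a basement membrane.

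Reads counted in genes ranged from 6897294 in glia replicate 2 to 22439837 in GPC replicate 3. GPC replicate 3 stood apart from the other 3 GPC libraries on the second principal component, which held 4.48% of the variance. On the first, which held 90.4% and separated the groups, it was the GPC library nearest to glia. It lay there at -46.8, the other GPC libraries at -64.8 to -63.1 and glia at 79.1 to 80.4. Results that GPC replicate 3 moved most are given with and without it. Summed over 6 astrocyte markers, RPKM (reads scaled by gene model length and library reads) went from between 73.9 and 149 in GPC to between 5919 and 8083 in glia, and over 6 oligodendrocyte markers from between 95.5 and 118 to between 1593 and 2260. Of these lists 5 astrocyte markers rose and 1 fell, and all 6 oligodendrocyte markers rose, where 35.2% of all genes tested rose and 35.2% fell. The sum over 6 neural progenitor markers, 2 of which rose and 2 fell, was between 6887 and 7376 in GPC and between 3230 and 3294 in glia. In bulk RNA, fewer cells of a type and less RNA per cell cannot be told apart.

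Most collagen genes that could be tested were higher in glia. Of the 36 members with enough reads, 24 rose and 7 fell in glia (edgeR's quasi-likelihood test on counts, Benjamini-Hochberg adjusted p below 0.05). That is 66.7% and 19.4%, where 35.2% of the 13588 genes tested rose and 35.2% fell, 70.4% in all. At least 2-fold rises were found for 21 members (58.3%, against 16.5% of all genes tested) and at least 2-fold falls for 5 (13.9%, against 9.24%). The median log2 change (glia over GPC) was 1.17 for the collagen genes and 0.00 for all genes tested. The RPKM values of the 4 GPC and 3 glia libraries did not overlap for 29 members (80.6%, against 69.1% of all genes tested). In 24 of these every glia library was above (36.9% of all genes) and in 5 every glia library was below (32.1%). Without GPC replicate 3, 25 members rose, 7 fell and the median was 1.08, where 5159 of 13550 genes tested rose and 5114 fell.

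The largest rises were in Col23a1, a transmembrane collagen, and in both chains of type VIII, a short-chain network former. The most abundant transcripts were the fibrillar chains Col3a1 and Col1a1, which rose 4.21-fold and 3.64-fold, to 233 ± 17.8 and 191 ± 14.9 RPKM (SD, n = 3). The falls were Col18a1, Col5a3, Col6a3, Col7a1, Col9a3, Col4a1 and Col4a4. Col5a3, Col6a3, Col9a3, Col4a1 and Col4a4 fell while other chains of the same type rose.

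**Figure D1:**
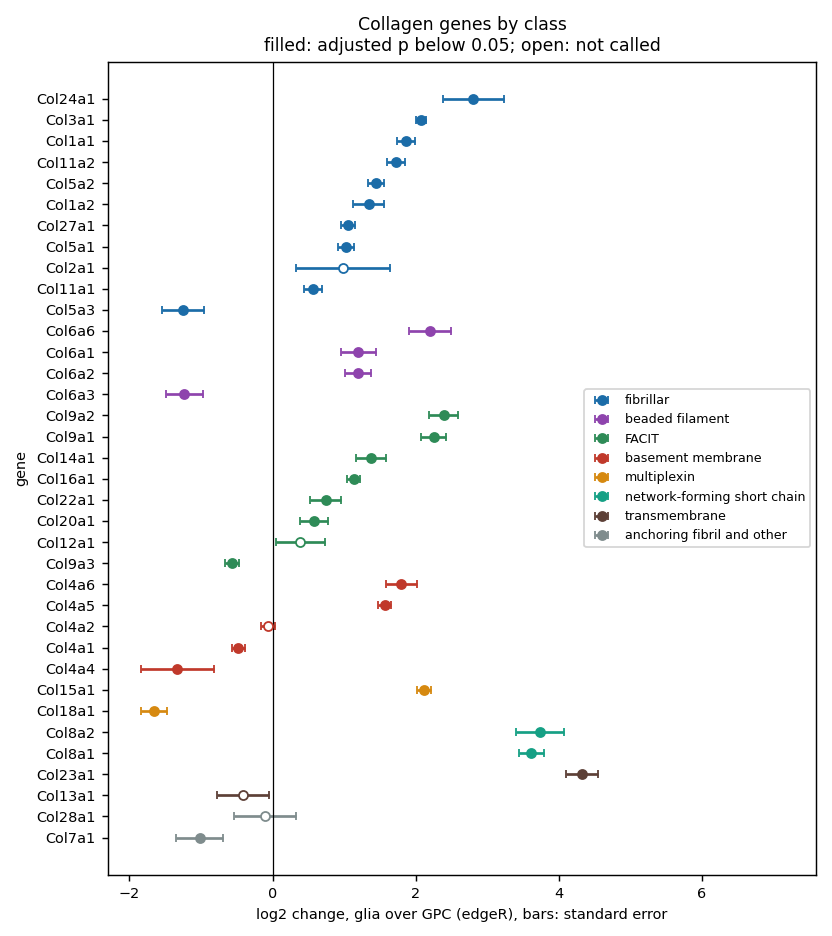
Log2 change of each of the 36 tested collagen genes (x axis, glia over GPC, with standard error bars), arranged by class on the y axis; filled points passed the edgeR test and open points did not. Col23a1, Col8a2 and Col8a1 lie farthest to the right, at 4.32, 3.74 and 3.62, and Col18a1 lies farthest to the left, at -1.65.

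Markers of mesenchyme and fibroblasts were mostly higher in glia too. Of 16 such genes in the table, 15 were tested, 13 rose (86.7%) and 2 fell (13.3%, Foxc1 and Fbln1), where 35.2% of all genes tested rose and 35.2% fell, and their summed RPKM was 82.9 to 88.2 in GPC replicates 1, 2 and 4, 110.5 in GPC replicate 3 and 364 to 460 in glia. The small proteoglycan Dcn had the highest of these levels in glia, at 140.0 ± 15.4 RPKM (SD, n = 3) against 17.2 ± 3.62 in GPC (n = 4), and no marker of the list was at 0 in every library. The other lists, of 2 to 5 tested genes each, had lower summed levels, and a share in them rests on few genes. Of 9 endothelial markers 3 were tested, 1 rose and 2 fell, their sum was 2.84 to 4.95 RPKM in GPC and 2.42 to 3.75 in glia, and Cldn5 was at 0 throughout. Chondrocyte markers (2 of 7 tested, 1 rose, 1 fell) summed to at most 0.708 RPKM in GPC and 3.16 to 3.87 in glia. Schwann cell and neural crest markers (4 of 7 tested, 2 rose, 1 fell) summed to 36.1 to 41.1 RPKM in GPC and 40.7 to 43.9 in glia. Of 11 markers of endoderm and epithelium 5 were tested, 4 rose (80.0%) and 1 fell (20.0%), against the same 35.2% in each direction. The 11 summed to 4.46 to 5.81 RPKM in GPC and 8.14 to 11.3 in glia, with Sox17 at 0. The part of these markers in the collagen changes was not tested.

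Among fibrillar collagens, 9 of 11 members rose and 1 fell, where 35.2% of all genes tested rose and 35.2% fell. The median log2 change was 1.34, and without GPC replicate 3 the count was 10 and 1. Col3a1 encodes the chain of type III collagen, which is a homotrimer and a main component of reticular fibers. Its RPKM was 55.8, 56.2, 49.7 and 55.1 in GPC replicates 1 to 4 and 235.7, 249.8 and 214.4 in glia replicates 1 to 3. The groups were far apart, and the lowest glia library lay above every GPC library. The log2 change was 2.07 ± 0.07 (SE, edgeR adjusted p = 8.61e-09), a 4.21-fold rise. The 250 bases before its annotated start (RefSeq, GRCm38.p6, chr1:45311288-45311537, plus strand) are shown because Col3a1 was the most abundant member in both groups and 1 of 4 whose window held a SOX-type motif; capitals mark ACAAT with an overlapping match on the opposite strand, 195 to 188 bases before the start, and ACAAAG, 176 to 171 bases before it.
Col3a1: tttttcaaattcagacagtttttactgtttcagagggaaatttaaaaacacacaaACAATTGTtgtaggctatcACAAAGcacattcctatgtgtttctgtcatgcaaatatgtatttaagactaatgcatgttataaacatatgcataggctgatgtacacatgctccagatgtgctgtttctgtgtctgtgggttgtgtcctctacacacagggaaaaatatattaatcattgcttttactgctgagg

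Type I collagen, the chief collagen of skin and bone, is usually made of Col1a1 and Col1a2 chains. Col1a1 stood at 60.6, 52.5, 39.1 and 53.0 RPKM in GPC and 186.5, 207.3 and 178.3 in glia, in the same library order. For Col1a2 the levels were 6.51, 5.77, 3.40 and 6.71 in GPC and 14.7, 16.6 and 12.0 in glia. Both rose without overlap, by log2 1.86 ± 0.13 (edgeR adjusted p = 7.23e-07) and 1.34 ± 0.22 (edgeR adjusted p = 0.000663), and GPC replicate 3 was the lowest library for each. Col1a1 exceeded Col1a2 per length in every library, by 9.45 ± 1.5-fold in GPC (SD, n = 4) and 13.3 ± 1.36-fold in glia (n = 3).

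Type V collagen nucleates fibrils of type I, and its 3 chains did not move together. Col5a1 was at 14.1, 13.2, 10.4 and 13.6 RPKM in GPC and 26.6, 29.9 and 23.5 in glia. Col5a2 was at 5.70, 5.17, 5.63 and 5.41 RPKM in GPC and 14.5, 18.6 and 13.1 in glia. Col5a3, a chain of more restricted expression, was at 4.47, 4.04, 1.84 and 3.55 RPKM in GPC and 1.25, 1.59 and 1.59 in glia. All 3 separated the groups, with Col5a1 and Col5a2 above GPC in every glia library and Col5a3 below. The log2 changes were 1.02 ± 0.11 (edgeR adjusted p = 1.58e-05), 1.45 ± 0.11 (edgeR adjusted p = 9.97e-07) and -1.26 ± 0.29 (edgeR adjusted p = 0.00455). For Col5a3 the change was -1.49 without GPC replicate 3, the lowest of the GPC libraries.

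Type XI collagen, built from Col11a1, Col11a2 and a Col2a1-derived chain, is a minor fibrillar type of cartilage. Col11a2 was at 1.62, 1.39, 1.69 and 1.52 RPKM in GPC and 4.95, 4.57 and 6.15 in glia, a rise of log2 1.72 ± 0.13 (edgeR adjusted p = 9.46e-07). Col11a1 was at 8.44, 8.29, 6.57 and 8.78 RPKM in GPC and 11.6, 14.7 and 10.4 in glia, a smaller rise of log2 0.57 ± 0.13 (edgeR adjusted p = 0.0024). Neither overlapped between groups. Col2a1, the major cartilage collagen, was at 0.386, 0.357, 1.93 and 0.338 RPKM in GPC and 1.37, 1.23 and 2.25 in glia. GPC replicate 3 lay within the glia range while the other 3 GPC libraries lay well below it. With all libraries Col2a1 was not called (log2 0.98 ± 0.65, edgeR adjusted p = 0.212), and without GPC replicate 3 it was (log2 2.21, edgeR adjusted p = 7.46e-06).

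The last 2 fibrillar genes, Col24a1 and Col27a1, are later-described members found in the developing skeleton. Col27a1 was at 2.80, 2.16, 2.70 and 2.64 RPKM in GPC and 5.63, 5.15 and 5.62 in glia, all glia libraries above all GPC libraries (log2 1.06 ± 0.10, edgeR adjusted p = 5.7e-06). Col24a1, named here after its values were seen, had 1 to 8 reads in each GPC library and 15 to 37 in glia, below 0.31 RPKM throughout (log2 2.81 ± 0.43, edgeR adjusted p = 0.000192).

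**Figure D2:**
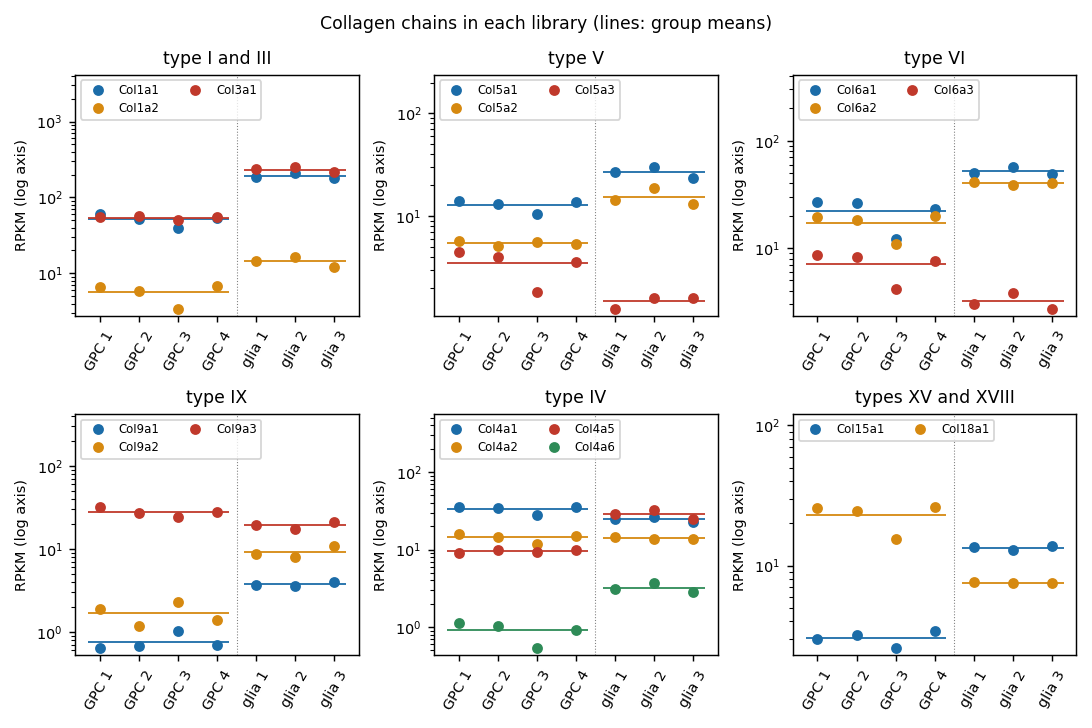
RPKM (log axis) of collagen chains in each of the 4 GPC and 3 glia libraries, with 1 panel per type or class; points are libraries and lines are group means. Within types IV, V, VI and IX and between types XV and XVIII, chains move in opposite directions between GPC and glia.

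Type VI collagen forms beaded filaments around cells and is classically a trimer of Col6a1, Col6a2 and Col6a3, or of a later-described chain in place of Col6a3. Col6a1 was at 27.1, 26.3, 12.1 and 23.3 RPKM in GPC and 50.3, 56.6 and 49.1 in glia. Col6a2 ran close to it, at 19.5, 18.3, 11 and 20.0 RPKM in GPC and 41.0, 39.1 and 40.3 in glia. Col6a3 was at 8.64, 8.20, 4.20 and 7.66 RPKM in GPC and 3.00, 3.84 and 2.72 in glia. All 3 separated the groups, in opposite directions, and GPC replicate 3 was the lowest GPC library for each. Col6a1 and Col6a2 each rose by log2 1.20, with SE of 0.24 and 0.18 (edgeR adjusted p = 0.0026 and 0.000375), and Col6a3 changed by -1.23 ± 0.26 (edgeR adjusted p = 0.00281). Without GPC replicate 3 the values were 0.99, 1.03 and -1.44. Among the alternative chains, Col6a4 and Col6a5 had at most 4 reads in a library and were not tested. Col6a6, named after its values were seen, rose by log2 2.20 ± 0.30 at levels of at most 0.176 RPKM (edgeR adjusted p = 8.28e-05), far below the level of Col6a3.

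FACIT collagens, which decorate fibrils without forming them, had 9 members. Of these 8 were tested, 6 rose and 1 fell, where 35.2% of all genes tested rose and 35.2% fell. Type IX collagen, a FACIT of cartilage and vitreous made of the chains Col9a1, Col9a2 and Col9a3, was divided. Col9a1 was at 0.637, 0.677, 1.02 and 0.693 RPKM in GPC and 3.7, 3.57 and 4.05 in glia. Col9a2 was at 1.87, 1.18, 2.30 and 1.38 RPKM in GPC and 8.68, 7.91 and 10.9 in glia. Col9a3 was the most abundant chain of the type in every library, at 32.4, 27.4, 24.6 and 28.2 RPKM in GPC and 19.3, 17.6 and 21.0 in glia. None of the 3 overlapped between groups. Col9a1 rose by log2 2.25 ± 0.17 (edgeR adjusted p = 1.17e-06), Col9a2 rose by 2.39 ± 0.21 (edgeR adjusted p = 4.01e-06) and Col9a3 changed by -0.57 ± 0.10 (edgeR adjusted p = 0.000538). The annotated Col9a3 gene overlaps the protein-coding gene Tcfl5 in RefSeq (GRCm38.p6). Whether counting used strand is not stated, so reads in the stretch they share may not be separable.

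Of the remaining FACIT genes, Col16a1, found near fibrils and in several basement membrane zones, was the most abundant in glia. It stood at 14.6, 13.6, 11.8 and 14.7 RPKM in GPC and 30.2, 29.1 and 32.5 in glia, without overlap (log2 1.13 ± 0.09, edgeR adjusted p = 1.1e-06). Col12a1, a fibril-associated collagen of tendon and fascia, was at 8.34, 8.21, 3.85 and 9.37 RPKM in GPC and 8.62, 14.6 and 6.91 in glia. Glia replicates 1 and 3 lay within the GPC range and glia replicate 2 above it, and the gene was not called (log2 0.39 ± 0.35, edgeR adjusted p = 0.344). The lower genes, named after their values were seen, were Col14a1 (log2 1.38 ± 0.21), Col22a1 (0.74 ± 0.22) and Col20a1 (0.58 ± 0.20), and all had group means below 1.61 RPKM. They rose with edgeR adjusted p of 0.000172, 0.011 and 0.0246. The Col20a1 call was lost without replicate 2 or 4 of GPC (edgeR adjusted p = 0.0623 and 0.0654) or replicate 1 or 3 of glia (0.059 and 0.128).

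Basement membrane collagen, type IV, is assembled from 6 chains encoded by 3 pairs of neighboring genes, and the pairs differed. Of the 6 genes 5 were tested, 2 rose, 2 fell and 1 was not called, where 35.2% of all genes tested rose and 35.2% fell. The median log2 change of the 5 was -0.06. Col4a5 was at 9.0, 9.81, 9.25 and 9.89 RPKM in GPC and 29.0, 32.9 and 24.5 in glia. Its partner Col4a6 was at 1.14, 1.03, 0.534 and 0.922 RPKM in GPC and 3.06, 3.73 and 2.82 in glia. Both rose without overlap, by log2 1.57 ± 0.09 (edgeR adjusted p = 2.19e-07) and 1.80 ± 0.22 (edgeR adjusted p = 4.81e-05). These genes lie head to head, with annotated starts 1343 bases apart on opposite strands (RefSeq, GRCm38.p6).

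Col4a1 and Col4a2, the chains found in nearly all basement membranes, are also head to head, with starts 21 bases apart in the same annotation; they are named here after their values were seen. Col4a1 was at 35.9, 34.7, 27.9 and 35 RPKM in GPC and 24.8, 26.2 and 22.6 in glia. Col4a2 was at 15.8, 14.6, 11.8 and 15.2 RPKM in GPC and 14.6, 13.8 and 13.6 in glia. Every glia library lay below every GPC library for Col4a1 (log2 -0.48 ± 0.09, edgeR adjusted p = 0.000944), while the groups overlapped for Col4a2, which was not called (log2 -0.06 ± 0.10, edgeR adjusted p = 0.56). The genes overlap in RefSeq, so some of their reads may not be separable. The chains Col4a3 and Col4a4, best known from the kidney filter, were barely detected. Col4a3 had at most 12 reads in a library and did not pass the count filter, and Col4a4, at most 0.206 RPKM, was called at log2 -1.33 ± 0.51 (edgeR adjusted p = 0.0372) with overlapping groups, or -1.65 without GPC replicate 3, a call lost when any 1 glia library was left out (edgeR adjusted p = 0.0667 to 0.111).

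Both multiplexins, collagens of basement membrane zones that carry long sugar chains, changed in opposite directions. Col15a1 was at 3.01, 3.20, 2.58 and 3.43 RPKM in GPC and 13.6, 13.0 and 13.8 in glia. Col18a1, whose C-terminal fragment is endostatin, was at 26.0, 24.4, 15.5 and 26.4 RPKM in GPC and 7.65, 7.53 and 7.58 in glia. No value overlapped for either gene, so Col18a1 was the higher of the pair in every GPC library and Col15a1 in every glia library. Col15a1 rose by log2 2.12 ± 0.09 (edgeR adjusted p = 3.82e-08) and Col18a1 changed by -1.65 ± 0.18 (edgeR adjusted p = 3.98e-05), or -1.80 without GPC replicate 3.

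Type VIII collagen, which forms the hexagonal lattice of Descemet's membrane and is also made in vessel walls, had the largest class median, at log2 3.68 over its 2 tested genes. Col8a1 was at 0.395, 0.494, 0.513 and 0.294 RPKM in GPC and 5.36, 6.38 and 4.80 in glia. Col8a2 was at 0.287, 0.194, 0.569 and 0.133 RPKM in GPC and 4.71, 5.25 and 3.63 in glia. The GPC values rested on 20 to 59 reads for Col8a1 and 8 to 56 for Col8a2, and every glia library lay above every GPC library for both genes. Col8a1 rose by log2 3.62 ± 0.17 (edgeR adjusted p = 5.27e-08) and Col8a2 by 3.74 ± 0.34 (edgeR adjusted p = 9.38e-06), or by 4.38 without GPC replicate 3. The third member of the class, Col10a1 of hypertrophic cartilage, had at most 2 reads in a library. The windows of 250 bases before the starts of Col8a1 (chr16:57754738-57754987, minus strand) and Col8a2 (chr4:126286544-126286793, plus strand), read along the gene's strand, are shown because these genes, on different chromosomes, rose to like levels; neither held ACAAT or ACAAAG, so no letter is in capitals.
Col8a1: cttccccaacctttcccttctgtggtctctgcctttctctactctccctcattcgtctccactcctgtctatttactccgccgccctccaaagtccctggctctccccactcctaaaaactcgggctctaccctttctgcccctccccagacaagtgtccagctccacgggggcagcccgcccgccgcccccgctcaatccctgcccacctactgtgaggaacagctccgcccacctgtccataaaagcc
Col8a2: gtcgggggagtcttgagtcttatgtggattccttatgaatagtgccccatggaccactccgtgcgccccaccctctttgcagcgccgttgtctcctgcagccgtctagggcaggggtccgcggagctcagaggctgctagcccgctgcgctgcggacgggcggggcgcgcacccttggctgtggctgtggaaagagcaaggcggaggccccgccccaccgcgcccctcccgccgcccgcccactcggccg

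Transmembrane collagens span the plasma membrane and can be shed from it. Col23a1 was at 0.651, 0.668, 1.42 and 0.797 RPKM in GPC and 18.8, 20.1 and 18.3 in glia. Every glia library lay far above every GPC library, and GPC replicate 3 was the highest of the GPC group. The log2 change of 4.32 ± 0.23 (edgeR adjusted p = 4.47e-07), or 4.71 without GPC replicate 3, was the largest of the 36 tested members. Its upstream window (chr11:51289670-51289919, plus strand), shown because the gene changed most, was without ACAAT or ACAAAG too. Col13a1, named after its values were seen, was not called (log2 -0.41 ± 0.36, edgeR adjusted p = 0.327). Col17a1, the hemidesmosome collagen, and Col25a1, a neuronal collagen, had at most 11 reads in a library and were not tested.
Col23a1: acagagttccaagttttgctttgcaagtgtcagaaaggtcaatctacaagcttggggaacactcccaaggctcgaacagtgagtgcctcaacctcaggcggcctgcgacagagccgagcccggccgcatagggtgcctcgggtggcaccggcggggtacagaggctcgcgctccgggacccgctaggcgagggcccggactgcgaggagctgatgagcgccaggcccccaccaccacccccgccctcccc

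Outside these classes, Col7a1 forms the anchoring fibrils of skin and Col28a1 is a peripheral nerve collagen. Col7a1 was at 1.96, 1.89, 0.768 and 2.04 RPKM in GPC and 0.704, 0.909 and 0.884 in glia. GPC replicate 3 lay inside the glia range, and the other GPC libraries lay above it. The log2 change was -1.02 ± 0.33 (edgeR adjusted p = 0.0222), or -1.28 without GPC replicate 3, and the call was lost without glia replicate 1, 2 or 3 (edgeR adjusted p = 0.0797, 0.0565 and 0.0604). Col28a1 was at 0.624, 0.470, 0.163 and 0.410 RPKM in GPC and 0.474, 0.171 and 0.394 in glia, with overlapping groups and no call (log2 -0.10 ± 0.44, edgeR adjusted p = 0.845).

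The 7 untested members, Col4a3, Col6a4, Col6a5, Col10a1, Col17a1, Col19a1 and Col25a1, had at most 13 reads and 0.322 RPKM in any library, and 4 of them had no read in some library. With no filter on counts, 5199 of 17895 genes tested rose and 4919 fell. All 43 collagen genes were then tested, and 26 rose and 7 fell. The 2 added calls were Col4a3 (log2 1.91, edgeR adjusted p = 0.00325) and Col6a5 (log2 2.27, edgeR adjusted p = 0.0418), both with every glia library above every GPC library. Col17a1 (all glia libraries above) and Col25a1 (all below) also did not overlap between groups but were not called (edgeR adjusted p = 0.1 and 0.118). The remaining 3 overlapped and were not called.

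Collagen genes together took a larger share of the reads in glia. The 43 genes held 0.185 ± 0.0256% of reads in genes in GPC (SD, n = 4) and 0.429 ± 0.0328% in glia (n = 3). The lowest GPC value, 0.147%, was that of GPC replicate 3, and the GPC mean without it was 0.197%. Glia ranged from 0.399% to 0.464%, so the groups did not overlap. The makeup of the collagen RNA also differed between the groups. The fibrillar class made up 43.6 ± 1.45% of the summed collagen RPKM in GPC and 63.2 ± 1.04% in glia. Basement membrane chains went from 17.5 ± 0.751% to 8.80 ± 0.301%, FACIT from 16.2 ± 0.884% to 9.62 ± 0.831% and multiplexins from 7.73 ± 0.717% to 2.64 ± 0.219%. These are shares of a growing total: the summed RPKM of basement membrane chains was 58.3 ± 5.81 in GPC and 70.7 ± 6.61 in glia, that of FACIT 54.0 ± 5.82 and 76.8 ± 2.59, and that of multiplexins 26.1 ± 5.45 and 21.1 ± 0.425. The multiplexin sums overlapped between the groups, with GPC replicate 3 at 18.1 RPKM and glia at 20.6 to 21.3. Without that library the GPC mean was 28.8 ± 1.16. The share of transmembrane collagens went from 0.468 ± 0.147% to 2.44 ± 0.0649%. Col3a1 and Col1a1 ranked first and second per length in both groups, whereas Col4a1 went from rank 3 to 8 and Col23a1 from rank 25 to 10.

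**Figure D3:**
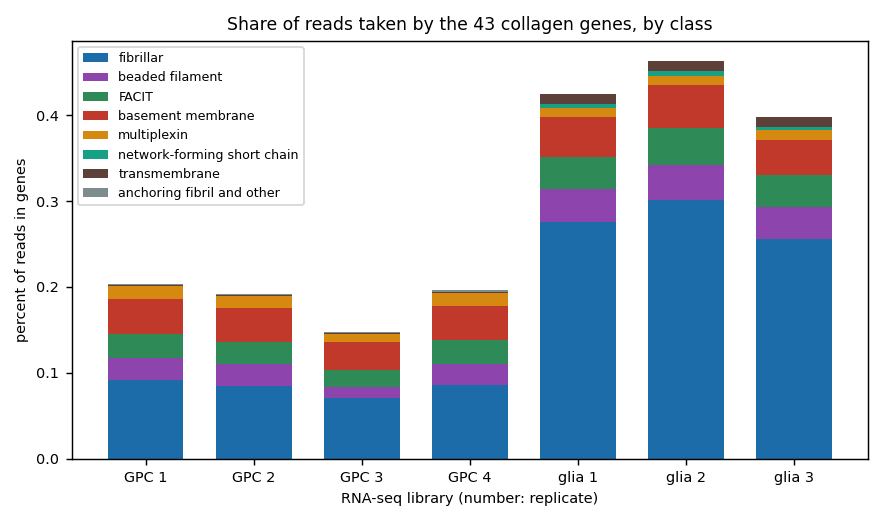
Percent of reads in genes taken by the 43 collagen genes in each library (y axis), stacked by class. The GPC libraries total 0.147% to 0.204% and the glia libraries 0.399% to 0.464%, and the fibrillar class is the largest block in each.

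Ratios of RPKM between chains show the unequal changes directly, and each was compared between the groups by an exact two-sided permutation test over the 7 libraries. With 4 against 3 libraries the smallest p this test can give is 0.0571, so no ratio can pass 0.05. The ratio of Col6a1 to Col6a3 was 3.07 ± 0.141 in GPC and 16.5 ± 1.68 in glia (exact p = 0.0571). The ratio of Col9a3 to Col9a1 was 39.1 ± 11 in GPC, with 24.2 in GPC replicate 3, and 5.11 ± 0.147 in glia (exact p = 0.0571). Col5a1 over Col5a3 was 3.98 ± 1.14 and 18.3 ± 3.27 (exact p = 0.0571). In these pairs no glia library came near the range of the GPC libraries. That follows from the single-gene values, because the chains of each pair separated the groups in opposite directions. These ratios and their exact p therefore add no separate evidence. The groups overlapped for Col6a1 over Col6a2, at 1.28 ± 0.166 and 1.30 ± 0.130 (exact p = 0.8). They also overlapped for Col4a5 over Col4a6, at 11.4 ± 4.13 and 9.01 ± 0.410 (exact p = 0.4), where GPC replicate 3 stood at 17.3 and the other GPC libraries at 7.90 to 10.7. Of 12 pairs compared, 8 did not overlap between the groups, each at the smallest possible p, which adjusted over the 12 pairs was 0.0857. Taken singly, 69.1% of all genes tested did not overlap either. Pairs of other genes were not compared, so the count cannot be called particular to collagen chains.

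Genes that modify, export, crosslink, bind and degrade collagen were followed through 6 lists of the pathway. In the endoplasmic reticulum, 12 of 19 modification and folding genes fell in glia (63.2%) and 4 rose (21.1%), where 35.2% of all genes tested fell and 35.2% rose. The collagen chaperone Serpinh1 was at 319.8, 291.8, 260.4 and 307.8 RPKM in GPC and 211.3, 211.7 and 209.6 in glia, with no overlap (log2 -0.52 ± 0.08, edgeR adjusted p = 0.000142). P4hb, the shared subunit of the prolyl 4-hydroxylases, was at 345.0 to 346.6 RPKM in GPC and 174.6 to 184.4 in glia (log2 -0.98 ± 0.06, edgeR adjusted p = 2.78e-07). The lysyl hydroxylases Plod1 and Plod2 changed by log2 -0.87 ± 0.11 and -1.01 ± 0.18 (edgeR adjusted p = 6.81e-05 and 0.000952). These genes were lower in every glia library than in any GPC library. Among the catalytic subunits, P4ha1 was 21.1 ± 1.41 RPKM in glia against 36.0 ± 15.6 in GPC, where replicate 3 alone reached 59.1. P4ha1 was called at log2 -0.81 ± 0.30 (edgeR adjusted p = 0.0433), or -0.46 without GPC replicate 3 (edgeR adjusted p = 0.000352), and the call was lost without GPC replicate 4 (0.055) or glia replicate 1, 2 or 3 (0.0985, 0.104 and 0.134). P4ha3 was at 5.50, 4.78, 14.3 and 5.15 RPKM in GPC and 57.4, 59.6 and 53.4 in glia. It rose by log2 2.85 ± 0.38 (edgeR adjusted p = 0.000301), or 3.43 without GPC replicate 3, the highest GPC library. The third catalytic subunit, P4ha2, named after its values were seen, was at 1.70, 2.17, 12.2 and 2.31 RPKM in GPC and 3.42, 3.40 and 4.09 in glia. GPC replicate 3 was above the glia range and the other GPC libraries below it, so P4ha2 was not called with all libraries (log2 -0.42 ± 0.73, edgeR adjusted p = 0.626) and was higher in glia without that library (0.81, edgeR adjusted p = 0.000344). The galactosyltransferase Glt25d2 (log2 1.37 ± 0.13, edgeR adjusted p = 4.69e-06) and the collagen-binding matricellular protein Sparc (1.06 ± 0.06, edgeR adjusted p = 1.34e-07) also rose, and the fourth gene to rise, Fkbp10, was named after its values were seen (0.47 ± 0.11, edgeR adjusted p = 0.00245).

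Of 13 tested export and processing genes, 3 rose (23.1%) and 8 fell (61.5%), against the same 35.2% of all genes in each direction, with Mia2 and Mia3 listed at 0 in every library. The procollagen N-proteinases did not move together. Adamts14 was at 12.8, 12.0, 12.2 and 12.5 RPKM in GPC and 1.09, 0.841 and 0.979 in glia (log2 -3.66 ± 0.10, edgeR adjusted p = 2.43e-09). Adamts3 went from 4.61 ± 1.05 to 0.824 ± 0.178 RPKM (log2 -2.58 ± 0.21, edgeR adjusted p = 2.97e-06) and Adamts2 from 1.09 ± 0.181 to 4.13 ± 0.387 (log2 1.88 ± 0.15, edgeR adjusted p = 1.86e-06). The first 2 were thus lower in glia and the last was higher. Pcolce, which speeds removal of the C-propeptide, rose from 12.1 ± 1.48 to 63.5 ± 2.83 RPKM (log2 2.36 ± 0.10, edgeR adjusted p = 2.58e-08), while its relative Pcolce2 changed by -1.10 ± 0.23 (edgeR adjusted p = 0.00163).

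Crosslinking oxidases, copper enzymes that join collagen chains through lysine, had 4 of 5 genes rise and 1 fall, against 35.2% of all genes in each direction. A share in so short a list rests on few genes. Lox was at 0.904, 0.848, 2.57 and 0.984 RPKM in GPC and 84.8, 102.0 and 62.2 in glia. The groups were far apart, and GPC replicate 3 was the highest GPC library. Lox rose by log2 5.82 ± 0.39 (edgeR adjusted p = 6.01e-06), or 6.47 without GPC replicate 3. Loxl4 rose by 3.87 ± 0.37 (edgeR adjusted p = 7.06e-06), or 4.84 without that library, to 1.58 ± 0.216 RPKM, and Loxl3 rose by 1.23 ± 0.12 (edgeR adjusted p = 8.68e-06). The gene that fell, Loxl2 (log2 -0.69 ± 0.24, edgeR adjusted p = 0.0347), was at -0.42 without GPC replicate 3 and lost its call without GPC replicate 4 or any of the glia libraries (edgeR adjusted p = 0.0536 to 0.112).

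**Figure D4:**
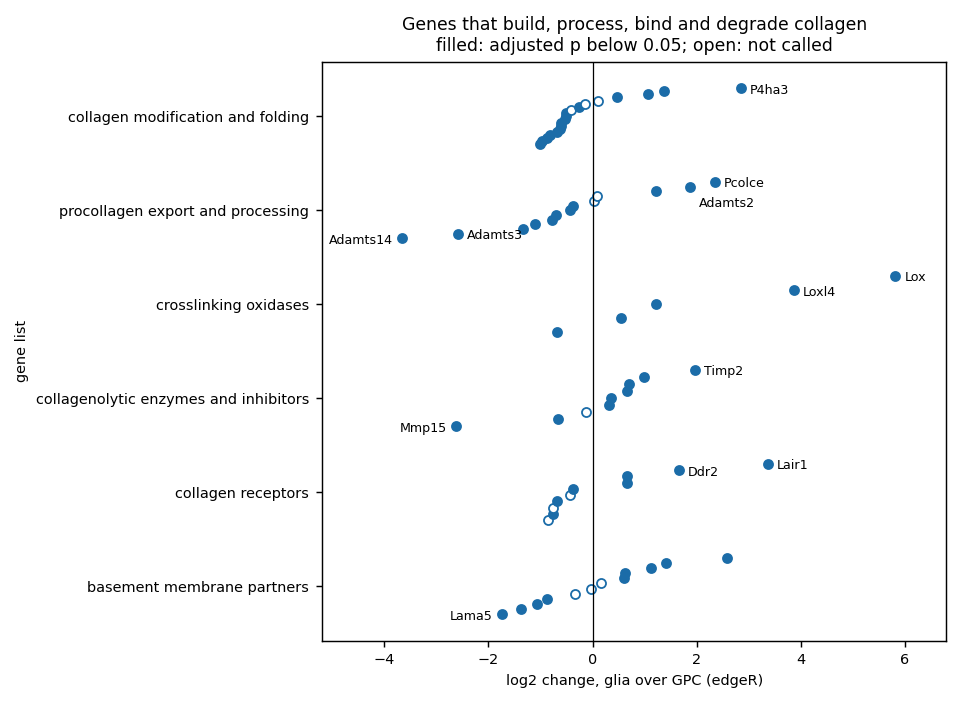
Log2 change (x axis, glia over GPC) of every tested gene in the 6 lists of the collagen pathway (y axis), 1 point per gene, filled where it passed the edgeR test. Lox (5.82) and Adamts14 (-3.66) are the outermost points, and most genes of the modification and folding list lie left of 0.

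Of 9 tested collagenolytic enzymes and their inhibitors, 6 rose (66.7%) and 2 fell (22.2%), against 35.2% of all genes in each direction. Mmp15, a membrane-type matrix metalloproteinase, was at 151.6 to 164.7 RPKM in GPC and 23.4 to 27.8 in glia (log2 -2.63 ± 0.09, edgeR adjusted p = 5.65e-09). Its relatives Mmp14 (0.98 ± 0.07, edgeR adjusted p = 6.86e-07) and Mmp16 (0.70 ± 0.14, edgeR adjusted p = 0.0012) rose. The inhibitor Timp2 rose from 46.6 ± 2.93 to 186 ± 11 RPKM (log2 1.97 ± 0.07, edgeR adjusted p = 1.17e-08), and Timp4 changed by -0.67 ± 0.24 (edgeR adjusted p = 0.0333), or -0.40 without GPC replicate 3, a call lost without glia replicate 2 (0.119) or 3 (0.0777).

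Of 10 tested collagen receptors, 4 rose (40.0%), 3 fell (30.0%) and 3 were not called, shares near the 35.2% of all genes in each direction, and Gp6, the platelet receptor, was listed at 0. Both discoidin domain receptors, tyrosine kinases switched on by triple-helical collagen, rose: Ddr1 from 147 ± 27.1 to 241 ± 19.3 RPKM (log2 0.67 ± 0.13, edgeR adjusted p = 0.00119) and Ddr2 from 1.65 ± 0.105 to 5.38 ± 1.54 (log2 1.65 ± 0.16, edgeR adjusted p = 9.93e-06). Lair1, an inhibitory receptor of immune cells, rose by 3.37 ± 0.32 (edgeR adjusted p = 1.37e-05), or 4.02 without GPC replicate 3, to 5.45 ± 0.572 RPKM. Lower in glia were the integrin subunit Itgb1 (-0.77 ± 0.08, edgeR adjusted p = 8.04e-06), the endocytic receptor Mrc2 (-0.68 ± 0.08, edgeR adjusted p = 3.02e-05) and the type III collagen receptor Gpr56 (-0.38 ± 0.07, edgeR adjusted p = 0.000497). Without GPC replicate 3, 5 receptors fell.

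Among 12 basement membrane partners of type IV collagen, 5 rose (41.7%) and 4 fell (33.3%), again near the 35.2% of all genes in each direction. Nid1, which links laminin to type IV collagen, was at 13.6, 14.4, 11.4 and 14.0 RPKM in GPC and 30.4, 34.7 and 24.4 in glia (log2 1.13 ± 0.12, edgeR adjusted p = 1.32e-05). The peroxidasin gene Pxdn, whose product crosslinks type IV collagen, rose from 27 ± 0.857 to 74.0 ± 5.65 RPKM (log2 1.42 ± 0.07, edgeR adjusted p = 4.6e-08), and Nid2 rose by 0.62 ± 0.09 (edgeR adjusted p = 0.000177). The laminin chains Lama5 (-1.74 ± 0.23, edgeR adjusted p = 0.0002) and Lama1 (-1.38 ± 0.17, edgeR adjusted p = 3.7e-05) and the heparan sulfate proteoglycan Hspg2 (-1.07 ± 0.23, edgeR adjusted p = 0.00358) fell.

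SOX3 and SOX9 peaks assigned to collagen genes numbered 8. In the authors' lists every peak has an assigned gene and a distance to that gene's transcription start site, and 1 of 1367 SOX3 peaks and 7 of 2943 SOX9 peaks carried a collagen gene. This gave 1 member with a SOX3 peak (2.33%, against 4.46% of genes in the table) and 6 with a SOX9 peak (14.0%, against 9.13% of genes in the table). All 6 were among the tested members, of which they made up 16.7%, against 11.6% of genes tested. None of the 8 peaks lay within 1 kb of the start, where 2.41% of the SOX3 list and 8.12% of the SOX9 list lay. Coordinates are of build mm9, and positive distances are as the authors signed them. The annotation of that build was not used here, so exons and introns under the peaks are not given.

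The SOX9 peak closest to a start was that of Col2a1, a classical SOX9 target in cartilage, at chr15:97832633-97833233, 2193 bases from the start. Col16a1 had one at chr4:129733019-129733619 (8235 bases) and Col5a3 one at chr9:20598517-20599117 (20694 bases). Col11a1 had 2, at chr3:113768517-113769117 (35358 bases) and chr3:113584325-113584925 (-148833 bases). The other SOX9 peaks were farther off: Col28a1 at chr6:7960646-7961246 (165448 bases) and Col3a1 at chr1:45007776-45008376 (-360308 bases). The single SOX3 peak, at chr9:79249699-79249823, was paired with Col12a1 from 316564 bases away. In all, 4 of the 7 SOX9 peaks (57.1%, against 67.9% of the SOX9 list) and not the SOX3 peak (against 66.1% of that list) lay within 100 kb. Of the 7 members with an assigned peak, Col3a1, Col11a1 and Col16a1 rose in glia, Col5a3 fell, and Col2a1, Col12a1 and Col28a1 were not called. Of all genes tested 35.2% rose and 35.2% fell, and of the tested collagen genes 66.7% and 19.4%. A share among 7 members rests on few genes. None of the 7 SOX9 peaks overlapped a SOX3 peak, against 10.8% of the SOX9 list, and 1 overlapped an NFIA peak by at least 1 base, against 28.4% of the list. That was the distal Col3a1 peak, which shared 301 bases with an NFIA peak whose deposited score was 62, where the median of that list was 16 and the upper quartile 19. From the starts implied by the authors' distances, a SOX9 peak that the authors assigned to Rpa3 lay 82731 bases from Col28a1, nearer than the peak assigned to it. By the same starts, NFIA peaks also lay 53302 bases from Col16a1 (score 21) and 93339 bases from Col5a3 (score 20). None lay within 100 kb of Col3a1, Col11a1 or Col28a1. For Col2a1 and Col12a1 no strand was at hand to place the start, so peaks near them were not searched for.

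SOX-type motifs were found in 4 of the collagen promoter windows. RefSeq (GRCm38.p6) windows were found for 35 of the 43 members, 38 windows in all, and the 250 bases before each start were searched on both strands for ACAAT and ACAAAG, letters of the core bound by SOX proteins, and for the NFI palindrome. ACAAT was in 2 windows (5.26%, against 27.7% of all 32851 windows of the table), ACAAAG in 4 (10.5%, against 16.5%) and either in 4 (10.5%, against 38.8%). The NFI palindrome was in none, against 0.0365% of all windows. The median GC content of the collagen windows was 59.0%, against 52.4% of all windows. Besides Col3a1, matches were in Col28a1 (ACAAT 51 bases and ACAAAG 217 bases before the start), Col20a1 and Col10a1.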

How the data were processed

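The authors deposited 1 expression table with whole-number read counts per gene and, per the file headers, RPKM values scaled by gene model length and library reads; the counts were used for every expression test and RPKM for levels and chain ratios. SOX3, SOX9 and NFIA peak lists were deposited as 1 list per factor over all its samples, and the deposited score of each NFIA peak has no stated meaning. Per the submitters' processing notes the build was mm9 and the peak callers MACS and MACS2; sources used here name no aligner, counting tool or strand setting. Of 9207 genes with at least 100 counts in every library, 85.3% had RPKM that implied 1 gene length within 1%.

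Counts were fitted in R 4.3.3 with edgeR 4.0.16 (TMM scaling, filterByExpr, robust glmQLFit and glmQLFTest, glia against GPC, two-sided, Benjamini-Hochberg over 13588 genes, threshold 0.05); SE is the log2 change over the square root of F. On simulated data for this comparison (13450 genes), 92.5% of 1.5-fold, 95.5% of 2-fold and 100% of 4-fold changes were recovered and 0.0453% of unchanged genes were called. The simulation gave every gene the same dispersion, had no outlying library and changed only 67, 67 and 66 genes by these folds. The measured data differ in each of these respects, so the rates may not hold for them. Sequences and gene overlaps come from RefSeq GRCm38.p6. Collagen genes named with values are those that passed at 2-fold or more with 1 RPKM or more in a group, those with an assigned peak, and partner chains; in each pathway list, the 3 largest passing genes per direction with 1 RPKM or more, plus Serpinh1, P4hb, P4ha1, Lox, Nid1, Ddr1 and Itgb1. The symbol rule and the lists were chosen with earlier results of these data known. Alternatives tried were DESeq2 1.42.0, RLE and upper quartile scaling, no count filter or a minimum of 50 counts in 3 libraries, the replicate number as a block, leaving out each library, other denominators of the read share, and other distance and overlap limits for peaks. Input and H3K27Ac samples were not analysed here. Col21a1, and Col26a1 under an older symbol, were outside the symbol rule or the table and were not analysed here.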

Additional observations from a re-analysis of the deposited data

Results flagged for a closer look

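The 62 results checked were levels of the collagen and pathway genes that met the naming rule and, as 1 of them, the collagen share of reads. Genes named after their values were seen, such as P4ha2 and Col4a1, were not checked, so the list of outlying values is not complete. In 11, all of them genes, 1 of the 4 GPC libraries lay far from the rest. This was judged by that library's gap to the nearest one as a share of the group's range, against Dixon's 95% critical value. Chance passes it in about 1 of 20 groups. In all 11 genes that library was GPC replicate 3. It was the highest for the cartilage collagen genes Col2a1 (0.97) and Col9a1 (0.853), for the crosslinking oxidases Lox (0.921) and Loxl4 (0.908), for the prolyl hydroxylase subunit P4ha3 (0.924) and for the protease inhibitor Timp4 (0.923). For Col3a1 (0.841), Col7a1 (0.878), the galactosyltransferase Glt25d2 (0.864), the perlecan gene Hspg2 (0.871) and the laminin chain Lama5 (0.859) it was the lowest. Across the 28 collagen genes with at least 1 RPKM in a GPC library, GPC replicate 3 was below the other 3 in 18, above them in 7 and between them in 3. Of these collagen genes, Col2a1 alone changed its call without that library.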

How the results depend on the processing

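Of the 36 tested collagen genes, 31 kept their call under every alternative that tested them. Col2a1, Col4a4, Col7a1, Col12a1 and Col20a1 did not, and no called collagen gene reversed direction. Among the pathway genes, P4ha2 changed sign without GPC replicate 3. It went from log2 -0.42, not called, to 0.81 (edgeR adjusted p = 0.000344). Collagen counts ran from 23 to 25 rising and 5 to 7 falling with 1 library left out. The call for falling crosslinking oxidases (1 gene, Loxl2) became 0 with no count filter, and 0 to 1 with a library left out; falling collagenolytic genes ran from 1 to 2 and falling receptors from 3 to 5. P4ha1 was not called under upper quartile scaling (edgeR adjusted p = 0.0524), and P4ha1, Loxl2 and Timp4 were not called with no count filter (0.0919, 0.0731 and 0.0711). The cause was not tested. By RPKM the collagen share was 0.0730% in GPC and 0.186% in glia, and of mapped reads 0.153% and 0.352%. Within 100 kb, 0 SOX3 and 4 SOX9 peaks were left. Low depth limits Col4a4, Col6a6, Col24a1 and the 7 genes under the count filter, of which 2 were called with no filter (26 rising, 7 falling).

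Whether the replicate numbers pair the libraries is not settled by these data. Deviations from the group means had correlations of -0.0202, 0.138 and 0.0684 between same-numbered GPC and glia libraries. Between libraries of different number they ran from -0.159 to 0.0943. Correlations this weak, in so few libraries, cannot show that pairing is present or absent. With the replicate block, on replicates 1 to 3, 26 of 35 tested collagen genes rose and 5 fell, and 0 crosslinking oxidases fell. Of the 13676 genes tested with the block, 4542 rose and 4401 fell. Col2a1 and Col12a1 were then called (edgeR adjusted p = 0.0403 and 0.0294) and Col7a1, P4ha1 and Loxl2 were not (0.0706, 0.0842 and 0.0817).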
